A study of Mus musculus with 18 samples.

Results

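The integrated stress response was examined in mouse brain through 10 genes: the transcription factor genes Atf4, Atf5 and Ddit3, the chromatin-associated regulator gene Nupr1, the feedback gene Trib3, the amino acid transporter genes Slc7a5 and Slc3a2, and the amino acid synthesis genes Asns, Phgdh and Psat1. They were picked by symbol, and each was represented by its RefSeq transcript accession with the most counts over 12 libraries, out of 106519 accessions and 32812 genes with a matched accession. Of the 10 genes, 9 had at least 1 count. Atf5 and Nupr1 lead the set because of their levels in these same libraries, so their differences between genotypes are descriptions, and the p-values beside them are no independent support. The groups were 3 Ftsj1 KO mice and 3 wild-type (WT) mice, all C57BL/6 males aged 8 weeks that received no treatment. Ftsj1, on the X chromosome, encodes a 2′-O-methyltransferase of tRNA anticodon loops, and the allele that removes it is not given in the sources used here. Frozen brain lysates gave polyadenylated total mRNA and the mRNA fragments held inside ribosomes (ribosome-contained mRNA, as in ribosome profiling), with 1 library of each kind per mouse and n = 3 per genotype and kind. The question was whether the levels of these mRNAs, and the ratio of their ribosome-contained to total level, differed between KO and WT brain.

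In the integrated stress response, kinases that sense amino acid shortage, misfolded protein, viral RNA or haem deficiency phosphorylate the initiation factor eIF2. Most translation then falls, while mRNAs with upstream open reading frames in their leaders, Atf4, Atf5 and Ddit3 among them, are translated more. ATF4 protein in turn switches on genes for amino acid import, amino acid synthesis and tRNA charging, and CHOP, the product of Ddit3, and ATF5 act downstream of it or beside it. In brain this response is known for its part in learning, in myelin disease and in neurodegeneration.

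Total mRNA libraries held 2024748 to 3459406 counts and ribosome-contained libraries 1055741 to 1560192. Both accessions of Ftsj1 had 0 counts in each of the 12 libraries, so the knockout could not be checked here. Levels are given in CPM, counts scaled to a common library size. Neuron markers summed to 4342 to 4559 CPM in KO total mRNA and 4641 to 4729 CPM in WT, and astrocyte markers to 2718 to 3037 CPM in KO and 2750 to 2871 CPM in WT. Among the defining markers, Syt1 (neuron, in total mRNA), Mag (oligodendrocyte), Csf1r and Aif1 (microglia) and Pecam1 (endothelium) were at 0.

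The members are spread over 8 chromosomes, and the coordinates are gene spans in RefSeq's annotation of GRCm38. Atf4 (NM_009716.3) lies at chr15:80255184-80257545, Atf5 (NR_033136.1) at chr7:44812256-44816658 and Ddit3 at chr10:127290793-127296291. Nupr1 (NM_019738.1) lies at chr7:126623246-126625470 and Trib3 (NM_175093.2) at chr2:152337425-152344060. The transporter genes Slc7a5 (NM_011404.3) and Slc3a2 (NM_001161413.1) lie at chr8:121881146-121907686 and chr19:8706882-8723369. The enzyme genes Asns (NM_012055.3), Phgdh (NM_016966.3) and Psat1 (NM_177420.2) lie at chr6:7675165-7693209, chr3:98313171-98339969 and chr19:15905123-15925059, where GENCODE M21's transcript for Psat1 reaches further, to position 15904678. The Atf5 gene overlaps Nup62 and Il4i1b, the Ddit3 gene overlaps Mbd6 and Mars1, and the Nupr1 gene overlaps the long noncoding RNA gene Gm39087, so reads there could be split or mixed.

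The accession decides what was counted. A sum of 120 counts or more over all 12 libraries was reached by 39.5% of protein-coding genes with a single accession, by 24.7% of those with 2 accessions and by 12.6% of those with 3 or more. Nupr1, Slc7a5, Phgdh and Trib3 have 1 accession each. For Atf5 the chosen accession held 369 counts and the other, NM_030693.2, held 10, and for Slc3a2 the chosen accession held 314 counts and the next, NM_008577.4, held 233. The Atf5 accession is of RefSeq's noncoding class, although GENCODE M21 pairs it with a coding transcript. Nearly all bases of that transcript that the other Atf5 accession lacks are its first exon, chr7:44816402-44816658 on the minus strand, 257 bases upstream of the start codon. Of these, 82 bases (chr7:44816402-44816483) are also exon of Nup62 and Il4i1 on the opposite strand. Whether reads were counted by strand is not given in the sources used here. The Nup62 accession had a log2 fold change of 0.01 in total mRNA, KO over WT (edgeR, Benjamini-Hochberg adjusted p = 0.989).

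The element that ATF4 and its C/EBP partners bind is often written TGATGNAA. It was searched on both strands, with overlapping matches counted once per gene, in windows from 250 bases before to 50 bases after each start in RefSeq's annotation of GRCm38.p6. It occurred in 3 of the 9 members with a window, which is 33.3%, against 4.51% of 27025 genes. The members were picked as genes of the response that ATF4 drives, so this contrast is no independent support. To show where the match lies, the 250 bases before the start are printed for Nupr1 and Asns and the 30 bases around the match for Trib3, with the matched letters in capitals, each read 5′ to 3′ along the gene's own strand, the minus strand in each case.
Nupr1, chr7:126625471-126625720: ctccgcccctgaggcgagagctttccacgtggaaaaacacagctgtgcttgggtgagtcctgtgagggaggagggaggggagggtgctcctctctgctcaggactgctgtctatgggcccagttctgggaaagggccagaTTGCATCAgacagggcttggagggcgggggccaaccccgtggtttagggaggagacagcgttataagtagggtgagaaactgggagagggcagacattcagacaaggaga
Asns, chr6:7693210-7693459: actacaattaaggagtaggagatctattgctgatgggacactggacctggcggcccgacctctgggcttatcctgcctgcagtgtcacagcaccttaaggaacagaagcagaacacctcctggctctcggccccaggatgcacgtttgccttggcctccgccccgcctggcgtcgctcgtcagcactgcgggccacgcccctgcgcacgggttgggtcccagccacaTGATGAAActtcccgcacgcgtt
Trib3, chr2:152344028-152344057: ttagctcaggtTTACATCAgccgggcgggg
The Nupr1 match begins at position -110 from the start and reads on the strand opposite to the gene. The Asns match begins at position -23, on the gene's strand. The Trib3 match begins at position 15 past the start, again on the opposite strand. A match of letters is no evidence of binding, and the 3 genes with a match had different values in these brains, as given for each of them.

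Atf5 had the largest KO over WT log2 fold change of the 8 members that passed the filter on low counts, in total and in ribosome-contained mRNA alike. In total mRNA it had 19.3, 14.7 and 29.5 CPM in KO mice 1 to 3, against 11.3, 6.45 and 11.8 CPM in WT mice 1 to 3. KO mouse 3 was the highest and WT mouse 2 the lowest, and every KO mouse lay above every WT mouse. The mean was 21.2 ± 7.58 CPM in KO brain and 9.87 ± 2.97 CPM in WT brain (SD, n = 3 each), a 2.15-fold difference of means. These levels rest on 48 to 101 counts per KO library and 13 to 36 per WT library. The log2 fold change was 1.05 (SE 0.246), and the adjusted p from edgeR's quasi-likelihood test with Benjamini-Hochberg adjustment was 0.0541, just above the threshold of 0.05. Atf5 stood 28th by p among the 8206 accessions tested, 27 of which (0.329%) were called. The value depended on single mice: it was 0.73 (edgeR adjusted p = 0.456) without KO replicate 3 and 1.25 (edgeR adjusted p = 0.00226) without KO replicate 2.

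The KO mice lay above the WT mice in ribosome-contained mRNA too, where Atf5 had 19.3, 8.91 and 15.4 CPM in KO mice and 5.04, 5.23 and 7.78 CPM in WT mice. Here KO mouse 1 was the highest and KO mouse 2 stood closest to the WT mice. The counts behind these levels were 20, 10 and 16 in KO and 6, 6 and 12 in WT. Only the KO libraries reached the level that the filter on low counts asks for, so Atf5 was tested here through KO. Nearly all bases unique to the counted transcript lie upstream of the start codon, so these counts may not report footprints on the main reading frame. The mean was 14.5 ± 5.24 CPM in KO and 6.02 ± 1.53 CPM in WT (SD, n = 3 each), and the log2 fold change was 1.21 (SE 0.395, edgeR adjusted p = 0.273), which did not pass. Since both library kinds come from the same mice, they are not independent of each other.

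Atf4, which encodes the central transcription factor of the response, had 23.1, 20.9 and 27.8 CPM in KO total mRNA and 24.9, 29.8 and 27.2 CPM in WT. The genotypes overlapped, with the highest level in WT mouse 2 and the lowest in KO mouse 2. This gave a log2 fold change of -0.18 (SE 0.163, edgeR adjusted p = 0.841). In ribosome-contained mRNA Atf4 had 11.6, 8.02 and 13.4 CPM in KO and 15.1, 12.2 and 10.4 CPM in WT, again overlapping, with a log2 fold change of -0.18 (SE 0.347, edgeR adjusted p = 0.930). ATF4 is regulated largely through translation and protein turnover, which an mRNA level does not measure.

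Ddit3, the gene for CHOP, had 0 counts in all 12 libraries for each of its 3 accessions. Because so few genes with several accessions reached a sum of 120 counts, this 0 sets no upper limit on Ddit3 expression, and no fold was formed.

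Nupr1 encodes a small stress-induced chromatin-associated protein that is known as a target of ATF4 and CHOP. In total mRNA it had 12.7, 13.8 and 16.4 CPM in KO mice, against 6.93, 10.4 and 9.51 CPM in WT mice. The KO mice lay close together, all above the WT mice, of which mouse 1 was the lowest. The mean was 14.3 ± 1.86 CPM in KO and 8.95 ± 1.81 CPM in WT (SD, n = 3 each), 1.60-fold apart, from 43 to 56 counts per KO library and 21 to 29 per WT library. Its log2 fold change was 0.70 (SE 0.239, edgeR adjusted p = 0.335).

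In ribosome-contained mRNA Nupr1 had 17.4, 14.3 and 28.8 CPM in KO and 8.41, 9.59 and 8.43 CPM in WT. The WT mice were nearly level, and KO mouse 3 stood far above KO mice 1 and 2, which were themselves above every WT mouse. The mean was 20.1 ± 7.66 CPM in KO and 8.81 ± 0.673 CPM in WT (SD, n = 3 each), 2.29-fold apart, and the log2 fold change was 1.18 (SE 0.335, edgeR adjusted p = 0.169). The counts were 16 to 30 per KO library and 10 to 13 per WT library. Every KO library but not every WT library reached the filter's level, so Nupr1 too was tested here through KO. Without single mice the value ran from 0.84 to 1.39, and no such fit passed the threshold.

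Trib3 encodes a pseudokinase that ATF4 and CHOP induce and that damps both, and it was the rarest member with counts. In total mRNA it had 2.67, 1.84 and 4.97 CPM in KO and 0.945, 0.992 and 1.64 CPM in WT, from 9, 6 and 17 counts in KO and 3, 2 and 5 counts in WT. The KO mice lay above the WT mice, KO mouse 2 by little, and KO mouse 3 was the highest. These counts did not pass the filter. With no filter the log2 fold change was 1.34 (SE 0.572, edgeR adjusted p = 0.767), and the exact permutation p (two-sided) was 0.1, the smallest that 3 mice against 3 can give. In ribosome-contained mRNA Trib3 had 1, 1 and 2 counts in KO and 0, 0 and 1 count in WT, too few for a fold.

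**Figure D1:**
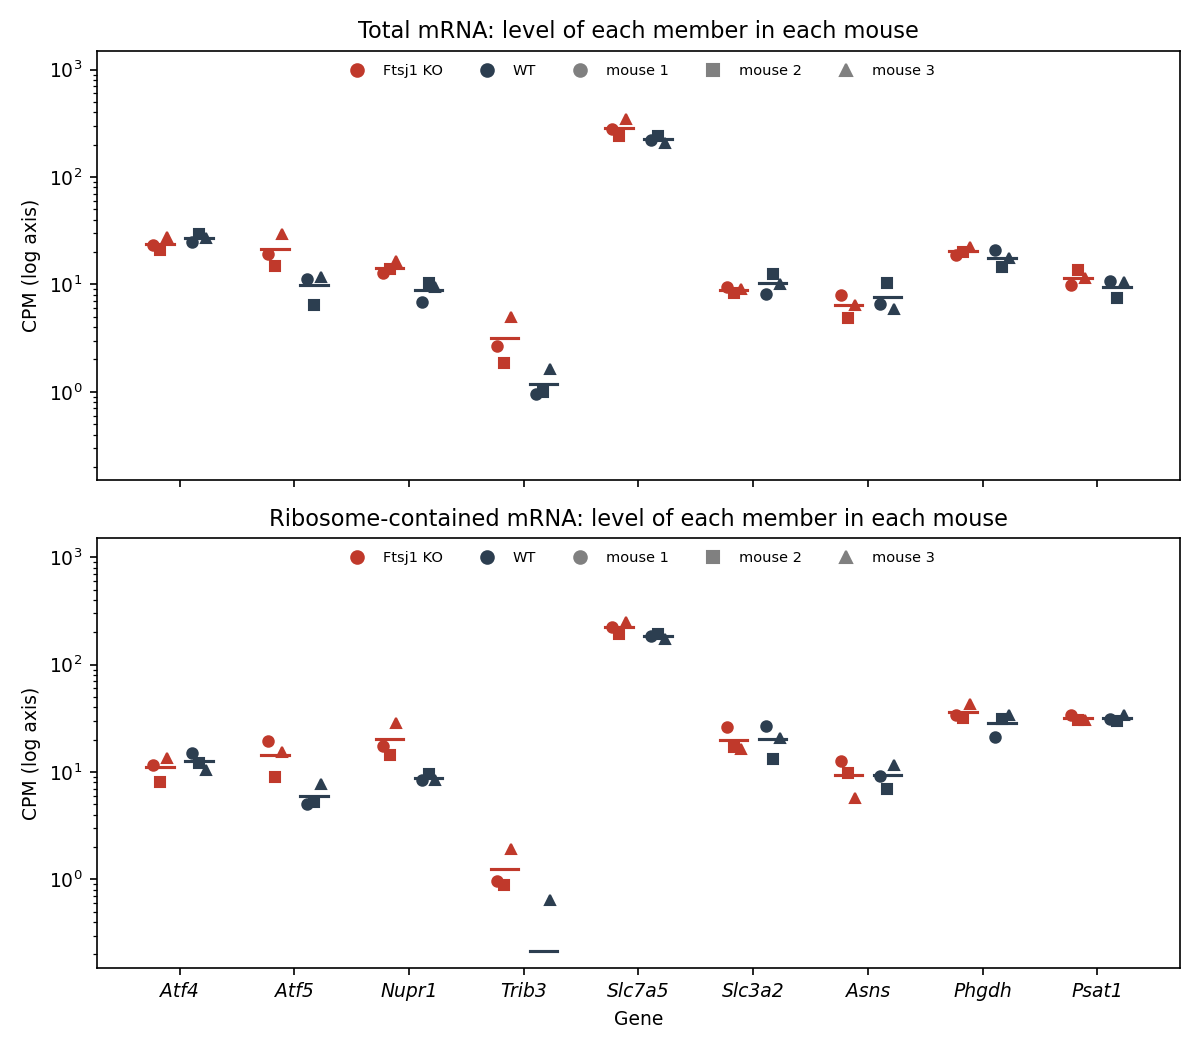
Level of each member in each mouse in CPM on a log axis, total mRNA above and ribosome-contained mRNA below, with KO left of WT for each gene, a marker shape per mouse number and a line at each group's mean (n = 3). Atf5, Nupr1 and Trib3 are the genes whose KO points all lie above the WT points in total mRNA; Ddit3, at 0 throughout, and the WT ribosome-contained libraries of Trib3 with 0 counts are not drawn.

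Slc7a5 encodes LAT1, the light chain of the transporter that carries large neutral amino acids, phenylalanine among them, across the blood-brain barrier and into neurons. It was the member with the most counts, 6150 over the 12 libraries. In total mRNA it had 278, 243 and 344 CPM in KO and 224, 244 and 206 CPM in WT. KO mouse 3 was the highest and KO mouse 2 stood level with WT mouse 2, so the groups overlapped. The mean was 288 ± 51.5 CPM in KO and 224 ± 18.8 CPM in WT (SD, n = 3 each), and the log2 fold change was 0.37 (SE 0.144, edgeR adjusted p = 0.597). Without KO replicate 2 it was 0.48 (edgeR adjusted p = 0.00226), and it did not pass without any one of the other 5 mice.

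Ribosome-contained Slc7a5 showed the same order of mice, at 226, 192 and 251 CPM in KO and 183, 193 and 172 CPM in WT. KO mouse 2 lay between WT mice 1 and 2, and the other KO mice lay above all WT mice. The log2 fold change was 0.29 (SE 0.0967, edgeR adjusted p = 0.293).

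Slc3a2 encodes CD98hc, the heavy chain that LAT1 needs to reach the cell surface. Its chosen accession had 9.48, 8.28 and 9.06 CPM in KO total mRNA and 8.19, 12.4 and 10.2 CPM in WT, with overlapping groups. KO over WT it stood at -0.16 on the log2 scale (SE 0.256, edgeR adjusted p = 0.913), while its next accession stood at 0.43 (SE 0.298, edgeR adjusted p = 0.774), so the sign of Slc3a2 depended on the accession. In ribosome-contained mRNA the chosen accession had 26.1, 16.9 and 16.3 CPM in KO and 26.9, 13.1 and 20.8 CPM in WT. The spread within each genotype exceeded the difference between them, and the log2 fold change was -0.05 (SE 0.287, edgeR adjusted p = 0.983).

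Among the synthesis enzymes, Asns makes asparagine, and Phgdh and Psat1 catalyse successive steps of serine synthesis, which in brain takes place largely in astrocytes. Asns had 8.00, 4.91 and 6.43 CPM in KO total mRNA and 6.62, 10.4 and 5.90 CPM in WT. Phgdh had 18.7, 19.9 and 22.2 CPM in KO and 21.1, 14.4 and 17.7 CPM in WT. Psat1 had 9.78, 13.5 and 11.4 CPM in KO and 10.7, 7.44 and 10.5 CPM in WT. The genotypes overlapped for all 3 genes, and WT mouse 2, the library with the fewest counts, was the highest for Asns and the lowest for Phgdh and Psat1. Their log2 fold changes in total mRNA were -0.19, 0.17 and 0.24, with edgeR adjusted p of 0.920, 0.864 and 0.854.

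In ribosome-contained mRNA Phgdh had 33.8, 32.1 and 43.2 CPM in KO and 21.0, 31.4 and 33.7 CPM in WT. WT mouse 1 was the lowest, and WT mouse 3 lay among the KO mice. The log2 fold change of 0.32 (SE 0.222, edgeR adjusted p = 0.702) did not pass. Psat1 had 33.8, 30.3 and 30.7 CPM in KO and 31.1, 29.6 and 33.7 CPM in WT, almost the same range, with a log2 fold change of 0.00 (SE 0.208, edgeR adjusted p = 0.997). Asns had 12.5, 9.80 and 5.76 CPM in KO and 9.25, 6.97 and 11.7 CPM in WT, with a log2 fold change of -0.02 (SE 0.392, edgeR adjusted p = 0.995).

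Over the whole set, no member passed the threshold between KO and WT in total mRNA (0 of the 8 tested by edgeR, against 0.329% of all accessions; 0 by DESeq2, which gave no adjusted p for Slc3a2 and Asns). Atf5, Nupr1 and Slc7a5 had an unadjusted p under 0.05, against 8.15% of accessions. Of the 8 log2 fold changes 5 were positive, and their median was 0.20, against 0.01 over all accessions. In ribosome-contained mRNA no member passed either, against 0.211% of all accessions, and the same 3 genes had an unadjusted p under 0.05, against 9.48%. Here 4 of 8 were positive, with a median of 0.14, against 0.00 over all accessions. DESeq2 also called none there, but it gave an adjusted p for Slc7a5 alone. Members whose KO mice all lay above the WT mice were 2 of 8 in each kind, Atf5 and Nupr1, against 6.62% of accessions in total and 7.10% in ribosome-contained mRNA. Both passed the filter on ribosome-contained mRNA only through their KO libraries. Their p-values and lack of overlap there are thus partly set by the filter. Because the members were chosen with earlier results of these data known, these shares and medians describe the set and give no independent support. Atf4, Slc3a2, Asns, Phgdh and Psat1 had log2 fold changes in total mRNA within about 1 standard error of 0.

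**Figure D2:**
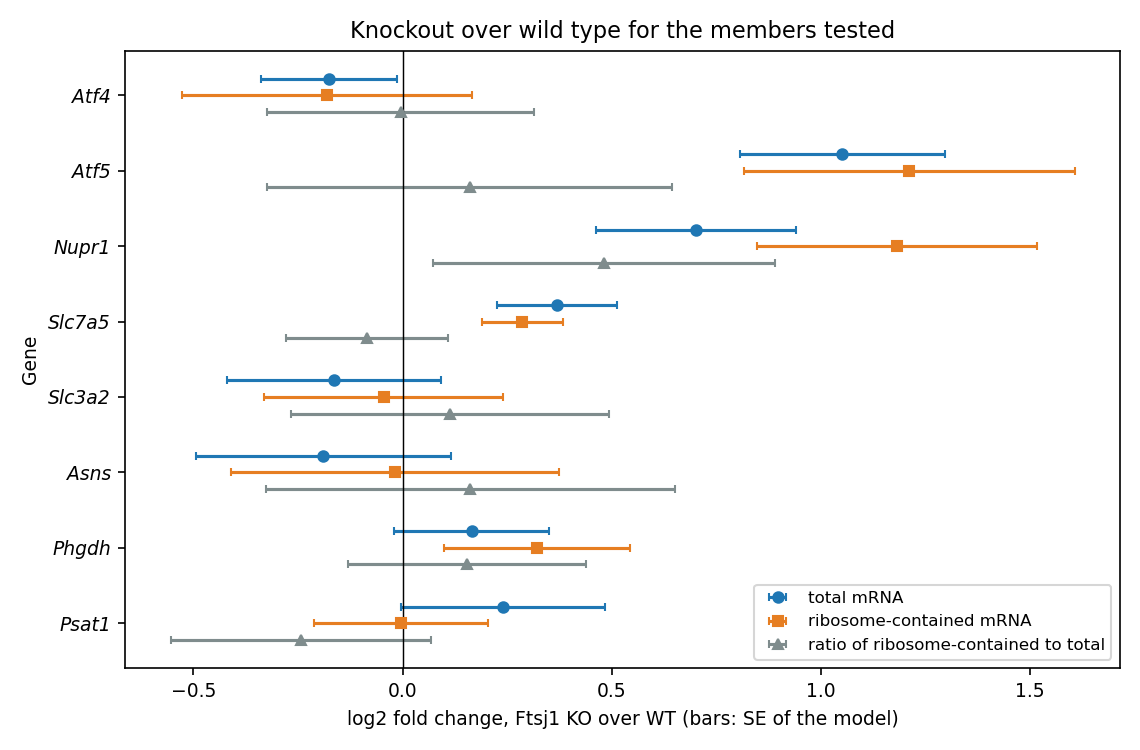
Log2 fold change of KO over WT for the 8 members tested, with the standard error of the edgeR model as bars, for total mRNA, ribosome-contained mRNA and their ratio. Atf5, Nupr1 and Slc7a5 stand right of 0 in both mRNA kinds, while the ratio's bars reach 0 or lie near it for the members.

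KO mouse 3 contributed to several of the larger values. It was the highest of the 6 libraries for Atf5, Nupr1, Slc7a5 and Phgdh in total mRNA, 4 of 8 members, against 16.5% of all accessions tested. In ribosome-contained mRNA it was the highest for Nupr1, Slc7a5 and Phgdh, 3 of 8 members, against 19.9%. Without KO replicate 3 the log2 fold change of Slc7a5 in total mRNA was 0.22 and that of Nupr1 in ribosome-contained mRNA 0.84.

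**Figure D3:**
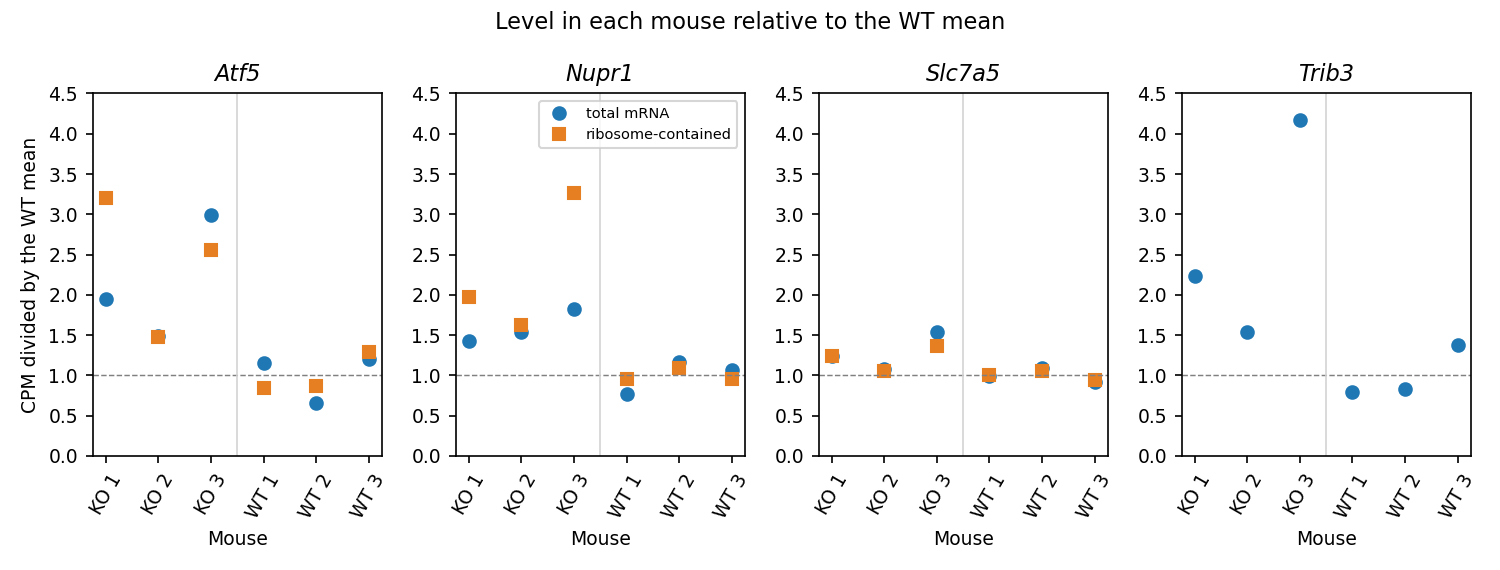
Level of Atf5, Nupr1, Slc7a5 and Trib3 in each mouse divided by the WT mean, KO mice on the left and WT mice on the right of each panel, for total mRNA (circles) and ribosome-contained mRNA (squares, not drawn for Trib3). KO mouse 2 is the KO mouse nearest to the WT mice for Atf5, and KO mouse 3 is the highest for Slc7a5 and Trib3.

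Per length, levels can be compared between the members with 1 accession. In total mRNA Slc7a5 stood at 81.9 ± 14.6 CPM per kb in KO and 63.8 ± 5.35 CPM per kb in WT (SD, n = 3 each), above Nupr1 at 17.3 ± 2.25 CPM per kb in KO and 10.8 ± 2.18 CPM per kb in WT. Phgdh followed at 10.7 ± 0.948 CPM per kb in KO and 9.37 ± 1.77 CPM per kb in WT. Trib3 was last, at 1.56 ± 0.800 CPM per kb in KO and 0.589 ± 0.192 CPM per kb in WT. Nupr1 and Phgdh lay within their spread of each other in WT brain, and every other step in this order was wider than the SDs.

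The ribosome-contained level divided by the total level, often called translation efficiency, passed the test between KO and WT for no member. No accession of the 4601 tested was called (0.00%, edgeR and DESeq2 alike), and 228 accessions (4.96%), none of them a member, had an unadjusted p under 0.05. In a fit with the mouse as a block, since both libraries of a pair come from 1 animal, 4 accessions and 0 members were called, and the members' edgeR adjusted p ran from 0.891 for Nupr1 to 0.999 for Atf4. For Atf5, whose translation is known to be gated by upstream open reading frames, the ratio was 0.784, 0.480 and 0.416 in KO mice and 0.353, 0.643 and 0.523 in WT mice. The genotypes overlapped, and the log2 fold change of the ratio was 0.16 (SE 0.484, edgeR adjusted p = 0.998). Because the bases unique to the counted accession lie in the leader, this ratio may not report footprints on the main reading frame.

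For Nupr1 the ratio was 1.07, 0.820 and 1.41 in KO and 0.962, 0.730 and 0.703 in WT. KO mice 1 and 3 were above the WT mice and KO mouse 2 was among them. The log2 fold change of 0.48 (SE 0.408, edgeR adjusted p = 0.998) was the largest among the members and did not pass. Slc7a5 had the tightest ratios, 0.636, 0.627 and 0.582 in KO and 0.650, 0.630 and 0.662 in WT, with a log2 fold change of -0.08 (SE 0.193, edgeR adjusted p = 0.998). The values for Atf4 were 0.392, 0.305 and 0.387 in KO and 0.482, 0.325 and 0.302 in WT, with a log2 fold change of 0.00 (SE 0.319, edgeR adjusted p = 0.999). For the other 4 members the log2 fold changes ran from -0.24 for Psat1 to 0.16 for Asns, with standard errors of 0.285 to 0.489.

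The members differed widely among themselves in the ratio of ribosome-contained to total level, in KO and WT brain alike. Atf4 was low, with a log2 ratio of -1.46 in KO (edgeR adjusted p = 1.48e-06) and -1.46 in WT (edgeR adjusted p = 3.13e-07). Slc7a5 was low too, at -0.71 in KO (edgeR adjusted p = 0.000356) and -0.63 in WT (edgeR adjusted p = 0.00125). Atf5 was at -0.89 in KO (edgeR adjusted p = 0.00582) and -1.05 in WT (edgeR adjusted p = 0.0133), but single mice decided the call. Its KO value was -0.63 (edgeR adjusted p = 0.103) without KO replicate 3, and the WT value had an edgeR adjusted p of 0.135 without WT replicate 1 and 0.0538 without WT replicate 3. These ratios are relative to the other accessions of the same libraries, and they do not measure the share of an mRNA inside ribosomes. For Atf5, Psat1 and Slc3a2 the bases unique to what was counted are only part of the transcript. For Atf4 and Asns, with 2 and 3 accessions, such bases were not determined. The part of these bases in the order of the members was not tested.

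Psat1 stood at the other end, with a log2 ratio of 1.11 in KO (edgeR adjusted p = 1.67e-05) and 1.35 in WT (edgeR adjusted p = 7.18e-07). Slc3a2 was at 0.80 in KO (edgeR adjusted p = 0.00940) and 0.68 in WT (edgeR adjusted p = 0.0199), and it did not pass in KO without KO replicate 1 (edgeR adjusted p = 0.124), nor in WT without WT replicate 1 (edgeR adjusted p = 0.413) or WT replicate 3 (edgeR adjusted p = 0.0803). With the accessions of Slc3a2 summed it passed in neither, at 0.26 in KO (edgeR adjusted p = 0.262) and 0.43 in WT (edgeR adjusted p = 0.0547). Phgdh was higher in KO, at 0.50 (edgeR adjusted p = 0.0222), and did not pass in WT, at 0.35 (edgeR adjusted p = 0.129), while the difference between the genotypes itself did not pass. The KO call for Phgdh was lost without KO replicate 1 (edgeR adjusted p = 0.0664) or KO replicate 3 (edgeR adjusted p = 0.131), and WT passed without WT replicate 1 (0.67, edgeR adjusted p = 0.0156). Nupr1, at 0.15 in KO and -0.33 in WT, and Asns, at 0.20 in KO and 0.04 in WT, passed in neither. Members called were 6 of 8 in KO, against 71.9% of all accessions, and 5 of 8 in WT, against 72.7%, so the share of members called was near the background. The KO calls were 3 higher (35.9% of all accessions) and 3 lower (36.0%), and the WT calls 2 higher (36.0%) and 3 lower (36.7%). Without WT replicate 3 the WT count was 3 of 8.

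**Figure D4:**
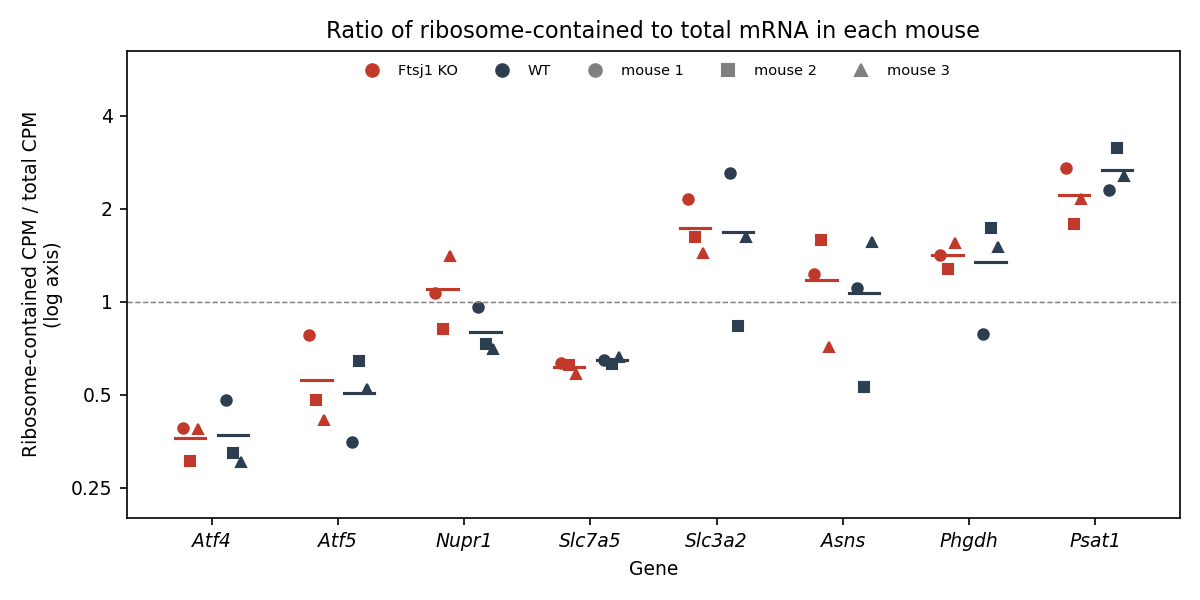
Ribosome-contained CPM divided by total CPM for each member in each mouse on a log axis, KO left of WT, with a line at each group's mean (n = 3). Atf4, Atf5 and Slc7a5 lie below 1 in every mouse and Psat1 above 1 in every mouse, and KO and WT points overlap for each gene.

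Footprints lie on the coding part of an mRNA, and the members differ in how much of the transcript that is. The coding part was 29.0% of the Nupr1 transcript, 42.4% for Psat1, 43.7% for Slc7a5, 46.8% for Atf5, 60.7% for Atf4, 84.1% for Asns and 84.5% for Phgdh (GENCODE M21 transcripts paired with the accessions). These are shares of whole transcripts. As for Atf5, the bases unique to the counted accession are only part of the transcript for Psat1 (449 and 196 bases at its ends) and Slc3a2 (735 and 386 bases), so the coding share behind their counts can differ. The same may hold for Atf4 and Asns, whose unique bases were not determined. The substrate tRNAs of FTSJ1 include the one for phenylalanine, so phenylalanine codons were counted as well. They made up 6.45% of the codons of Slc7a5 (33 of 512), 5.88% of Asns, 4.87% of Psat1, 3.44% of Atf4, 3.36% of Slc3a2, 2.83% of Trib3 and 2.63% of Phgdh. Atf5 with 1.77% (5 of 283 codons), Nupr1 with 1.25% (1 of 80) and Ddit3 with 1.19% (2 of 168) were the poorest in them, where the median over 21681 genes was 3.74%.

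The wider pathway was read from 5 lists of genes, chosen with earlier results of these data known. None of their tested genes rose or fell in KO total mRNA by edgeR or DESeq2, against 0.329% of all accessions. Of 18 genes for eIF2 kinases and eIF2 control, 12 were tested, and 3 had an unadjusted p under 0.05, against 8.15% of all accessions. Their median log2 fold change was -0.02, against 0.01 over all accessions. Eif2ak2, the kinase PKR that responds to double-stranded RNA, stood at 5.17 ± 0.408 CPM in KO and 2.91 ± 0.587 CPM in WT (SD, n = 3 each), with a log2 fold change of 0.82 (edgeR adjusted p = 0.583). Eif2b1, a subunit of the exchange factor that phosphorylated eIF2 blocks, was at -0.26 (edgeR adjusted p = 0.858). Gcn1, the partner through which stalled ribosomes activate the kinase GCN2, had 198 ± 1.74 CPM in KO and 170 ± 2.97 CPM in WT (SD, n = 3 each), and a log2 fold change of 0.22 (edgeR adjusted p = 0.192).

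Of 20 partner and feedback factors of ATF4 and CHOP, 10 were tested and 3 had an unadjusted p under 0.05, against 8.15% of all accessions. Their median log2 fold change was -0.02, against 0.01 over all accessions. Eif4ebp1, a translation repressor that ATF4 induces, was at 0.61 (edgeR adjusted p = 0.503), Gadd45a, a growth arrest gene, at -0.56 (edgeR adjusted p = 0.423), and Jdp2, a basic leucine zipper repressor, at -0.50 (edgeR adjusted p = 0.637). The genes of this list thus had values on both sides of 0.

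Of 18 other amino acid transporters 5 were tested, with a median of 0.10, and Slc38a2, Slc7a8 and Slc1a4 were at -0.42, -0.13 and 0.13. Of 19 other amino acid synthesis genes 8 were tested, with a median of -0.04, and Pycr3, Got1 and Gpt2 were at -0.25, -0.10 and 0.08. Of 13 tRNA synthetase genes that ATF4 is known to induce 3 were tested, with a median of 0.06, and Mars1, Tars and Gars were at 0.49, 0.06 and -0.04. No gene of these 3 lists had an unadjusted p under 0.05 in total mRNA. In ribosome-contained mRNA the medians of the 5 lists ran from -0.11 for eIF2 control to 0.06 for the partner and feedback factors, again with no gene called, against 0.211% of all accessions.

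**Figure D5:**
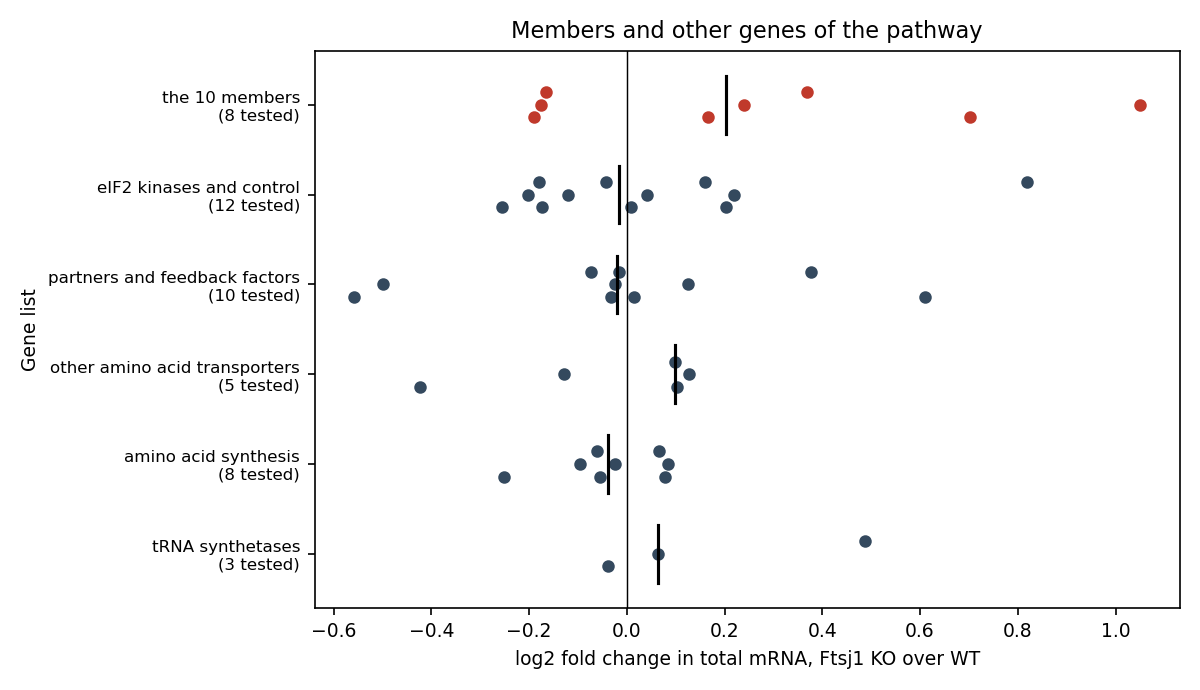
Log2 fold change of KO over WT in total mRNA for each tested gene of the 10 members and of the 5 other pathway lists, with a bar at each list's median. The members' median is 0.20 and those of the other lists lie between -0.04 and 0.10, with points on both sides of 0 in every list.

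The accessions whose levels over the 6 total mRNA libraries followed Atf5 and Nupr1 most closely were found by the root mean square difference of centred log2(CPM + 0.5). For Atf5 these were accessions of Ncl, at 0.20, Golga5, at 0.21, and the noncoding 5031434O11Rik, at 0.21. For Nupr1 they were accessions of Abhd17a, at 0.06, H13, at 0.10, and Wdr1, at 0.10. None of the 6 was called between KO and WT (edgeR adjusted p of 0.426 to 0.637).

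Markers of other cell types were read beside these values. Choroid plexus markers summed to 2896 to 2931 CPM in KO total mRNA and 2319 to 2560 CPM in WT, and to 6564 to 7331 CPM in KO ribosome-contained mRNA and 4963 to 5521 CPM in WT. Of the 6 genes 5 had counts, all with positive log2 fold changes in both kinds, and Folr1 was at 0. Ttr, the thyroxine carrier that choroid plexus secretes, rose to 2683 ± 7.50 CPM in KO total mRNA, against 2237 ± 118 CPM in WT (SD, n = 3 each; log2 fold change 0.26, edgeR adjusted p = 0.000491). Oligodendrocyte markers summed to 1795 to 1974 CPM in KO total mRNA and 2054 to 2103 CPM in WT. The sums of the oligodendrocyte and neuron lists in total mRNA were lower in every KO mouse than in any WT mouse. In ribosome-contained mRNA this held for the neuron list, at 9278 to 9659 CPM in KO and 9757 to 10330 CPM in WT. The oligodendrocyte sums overlapped there, at 2525 to 2722 CPM in KO and 2615 to 3006 CPM in WT. No gene of either list was called, and both lists hold genes with positive and negative log2 fold changes. Blood cell markers summed to 145 to 199 CPM in KO and 122 to 185 CPM in WT, endothelial markers to 213 to 246 CPM in KO and 234 to 264 CPM in WT, and microglia markers to 166 to 179 CPM in KO and 165 to 194 CPM in WT. The part of these cells in the levels of Atf5, Nupr1, Slc7a5 and the other members was not tested. In whole brain, a change in the number of cells of a type and a change in RNA per cell cannot be told apart.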

How the data were processed

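For 12 HiSeq libraries the authors deposited a table of raw read counts, 1 row per RefSeq transcript and 1 column per library, per the file headers. The submitters' processing notes name Bowtie2, HISAT2, HTSeq and mm10, with no version or role. How reads shared by transcripts or strands were treated is not given in the sources used here. Of the series' 18 libraries, the other 6, codon counts from a MiSeq, were not used, and 0 per-sample columns of the count table were left out. The instrument of the ribosome columns was taken from the table's name. Accessions were matched to genes with RefSeq's table for GRCm38.p6 (86040 of 106519 rows, 98.0% of counts).

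The main test was edgeR's robust quasi-likelihood fit of the counts (edgeR 4.0.16, limma 3.58.1, R 4.3.3) after TMM scaling and edgeR's filter (minimum count 10, minimum total 15), each library kind alone, with Benjamini-Hochberg adjustment over all accessions tested and a threshold of 0.05. For the ribosome-to-total ratio, 1 model of 12 libraries held genotype, library kind and their interaction, which was the term tested. Levels are CPM with TMM-scaled library sizes, as mean ± SD over 3 mice. Library totals ran from 1055741 to 3459406 counts, so members with few counts have wide errors. The fits were tested on simulated data. Alternatives were DESeq2 1.42.0, RLE size factors, no filter, accessions of a gene summed, replicate number as a block, and leaving out each mouse. Trib3 without the filter and with each mouse left out was added after seeing the data.

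The members and lists were chosen with earlier results of these data known. Named genes were all members, and of each pathway list every gene past the threshold or else the 3 with the largest absolute log2 fold change in total mRNA. For Atf5 and Nupr1, the 3 most alike accessions were also named. Markers were listed for astrocytes, endothelium, neurons, oligodendrocytes, microglia, choroid plexus and blood cells. Ribosome-contained and total libraries of 1 mouse are paired by animal. Deviations from the group means correlated at 0.0269 to 0.155 between them.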

Additional observations from a re-analysis of the deposited data

How the results depend on the processing

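With 1055741 to 3459406 counts per library and 13 to 101 counts per library for total Atf5, depth limits what can be seen for most members, and Ddit3 could not be measured. Deviations of same-numbered KO and WT mice correlated at -0.0722 to 0.0264. Libraries known to come from 1 mouse correlated as low as 0.0269, so this check cannot decide whether replicate numbers pair KO and WT mice. With the replicate block (the mouse itself in the 12-library model) 1 member was called in total mRNA, Atf5 (1.08, edgeR adjusted p = 0.00557), among 32 called of 8206 accessions. It called 48 of 4749 accessions in ribosome-contained mRNA and 4 of 4601 in the ratio. The values of Psat1 in ribosome-contained mRNA (0.0012) and of Atf4 in the ratio (0.0040) changed sign. The block changed no other member's call. Summing a gene's accessions also called 1 member in total mRNA, Atf5 (1.03, edgeR adjusted p = 0.0260), among 29 called of 8000 rows. The summing turned Slc3a2 to 0.16 in total mRNA and to -0.18 in the ratio. With no filter 2 members were called in total mRNA, Atf5 (1.03, edgeR adjusted p = 0.00296) and Slc7a5 (0.35, edgeR adjusted p = 0.00119). Accessions called were then 43 of 29955 in total mRNA, 27 of 19160 in ribosome-contained mRNA and 4 of 18026 in the ratio. For ribosome-contained over total mRNA they were 6477 in KO and 6571 in WT, each of 18026. DESeq2 called 16 accessions in total mRNA, and gave no adjusted p there for Slc3a2 and Asns; for ribosome-contained over total mRNA it did not call Phgdh in KO (DESeq2 adjusted p = 0.0514) or Slc3a2 in WT (DESeq2 adjusted p = 0.0507). The cause of these changes was not tested.

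Leaving out each mouse gave 9 to 42 accessions and 0 to 2 members called in total mRNA, 4 to 24 accessions in ribosome-contained mRNA, 0 to 4 in the ratio, and 3 to 5 members in WT for ribosome-contained over total mRNA. Values of members that did not pass changed sign in these fits. They ran from -0.37 to 0.041 for Asns in total mRNA. In ribosome-contained mRNA they ran from -0.35 to 0.0088 for Atf4, -0.29 to 0.19 for Slc3a2, -0.27 to 0.23 for Asns and -0.056 to 0.054 for Psat1. In the ratio they ran from -0.17 to 0.21 for Atf4, -0.15 to 0.42 for Atf5, -0.24 to 0.49 for Slc3a2, -0.24 to 0.52 for Asns and -0.16 to 0.30 for Phgdh. For ribosome-contained over total mRNA they ran from -0.092 to 0.32 for Nupr1 in KO and -0.33 to 0.42 for Asns in WT. Trib3 without the filter ran from 0.86 to 1.67. Atf5 in total mRNA ran from 0.73 to 1.25 over all alternatives (adjusted p of 0.00226 to 0.456), and Nupr1 in ribosome-contained mRNA from 0.84 to 1.39, positive in each.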
